A study of Arabidopsis thaliana with 12 samples.

Results

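The comparison described here sets gvs1-1 against Col, the reference accession of Arabidopsis thaliana, in leaves at the stage labelled DAE28, with 3 arrays of each genotype. These 6 arrays were taken by their labels, but the comparison, lists and members were chosen with earlier results of these data known. The series holds 12 arrays, the other 6 being the same genotypes at DAE14. Per the labels, the third and the fourth leaves of soil-grown plants were collected in a cycle of 16 h light and 8 h dark, with 5 h of light elapsed, from 3 independent biological samples per genotype and stage. The labels list 23 and 37 days of growth on soil and do not spell out DAE; neither they nor the file headers give the locus of gvs1 or the nature of the allele, and the state of the gene itself was not checked. RNA of each sample was labelled with Cy3 and hybridised to 1 Agilent array. Expression is given as a level, the log2 processed signal of a gene's probe minus the 75th percentile of its array, so that a level of 0 lies at that percentile and each unit is a 2-fold step. Levels compare arrays for a given gene and not genes with each other.

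Leaf senescence is the last, ordered phase of a leaf's life. Chloroplasts are dismantled, chlorophyll is broken down by a dedicated pathway, proteins, nucleic acids and lipids are degraded, and the nitrogen, phosphate and carbon they held are exported. Transcription factors of the NAC and WRKY families drive much of this programme, abscisic acid, ethylene, jasmonate and salicylic acid hasten it, and cytokinin delays it. SAG12, which encodes a cysteine protease, is the classical marker of developmental senescence.

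Arrays of one genotype at DAE28 correlated at 0.972 to 0.985 over all genes in Col and at 0.986 to 0.990 in gvs1-1, and arrays of different genotypes at 0.940 to 0.965, a description over genes that do not vary independently. The first principal component held 61.3% of the variance at DAE28 and separated the genotypes, and the second spread the Col arrays, at 52.3, 3.1 and -44.0. The arrays lay on 3 slides scanned on 2 days. Col replicate 1 was on slide 1, Col replicates 2 and 3 on slide 2, and the 3 gvs1-1 arrays on slide 3, so no slide held both genotypes at DAE28. A fit with slide as a block compares them there only through gvs1-1 at DAE14, with replicates 1 and 2 on slide 2 and replicate 3 on slide 3. That bridge thus rests on 1 array of slide 3. Col at DAE14 was on slide 1 alone, so Col replicate 1 at DAE28 only sets the term of that slide. It has no weight in the DAE28 difference of that fit. On the first scan day Col replicate 1 stood alone against the 3 gvs1-1 arrays, and that value assumes that a lone array varies like the other groups. Results from both are given below, as "with slide as a block" and "on the first scan day".

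Of 19152 genes tested, 33.1% differed between the genotypes at a Benjamini-Hochberg adjusted p under 0.05 (limma, 12 arrays in 1 fit). Higher levels in gvs1-1 were found for 3437 genes, 17.9% of those tested, and lower levels for 2900, 15.1%. The counts of lists and families below are to be read beside these shares. Higher genes thus made up 54.2% of the calls, 43.5% when arrays were centred on their median instead of their 75th percentile, and 43.3% with normexp background correction. The lower genes held the larger differences. At least 2-fold differences numbered 940 higher and 1048 lower genes, at least 4-fold 106 and 371, and at least 8-fold 21 and 134. The 3 Col and the 3 gvs1-1 arrays did not overlap for 45.7% of all genes tested and for 6124 of the 6337 that passed. The median difference of all genes was 0.04, and the median gene varied more among Col arrays (SD 0.218) than among gvs1-1 arrays (SD 0.152). With slide as a block 821 genes were higher and 942 lower; 6324 of the 6337 kept their direction and 1597 passed again. On the first scan day 2453 were higher and 1618 lower.

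SAG12 had the largest difference of all genes tested. Its level was 6.81, 6.61 and 6.50 in Col and -0.07, -1.56 and -5.92 in gvs1-1, a difference of -9.15 ± 1.17 (SE, n = 3 per genotype, adjusted p = 0.00063) or 570-fold. Every gvs1-1 array lay below every Col array, and the gvs1-1 arrays themselves spanned a wide range while the Col arrays were close together. With slide as a block the difference was -9.29 with adjusted p = 0.054, so the call was lost while the value was not smaller. Of the other 9 genes with a symbol that were most lower, above background on all 6 arrays and not overlapping between genotypes, 4 have known roles in breakdown. BFN1, a nuclease of senescing and dying cells, had levels of 1.28, 2.62 and 3.95 in Col and -1.47, -2.08 and -3.33 in gvs1-1, 30.1-fold lower in the mutant. DIN2, a beta-glucosidase induced by darkness and sugar starvation, had 2.24, 2.66 and 4.46 in Col and -1.17, -0.68 and -1.35 in gvs1-1, a difference of -4.19 ± 0.69. PAP20, a purple acid phosphatase by its name, was 14.8-fold lower. In BFN1 and DIN2 Col replicate 3 was the highest array.

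ASPGB1, an asparaginase that releases ammonium from asparagine, averaged 30.6-fold lower in gvs1-1 (-4.94 ± 1.02, adjusted p = 0.0052), but 1 Col array stood apart. Its Col levels were -2.05, 2.58 and 2.83 against -4.16, -3.45 and -3.84 in gvs1-1, and on the first scan day, which holds the low Col array, the difference was -1.76. OCT1, an organic cation and carnitine transporter, showed the same split, with -0.17, 2.01 and 2.39 in Col against -1.88, -3.07 and -4.58 in gvs1-1. TPS03, a terpene synthase, was 19.5-fold lower, and CCD7, a carotenoid cleavage dioxygenase of strigolactone synthesis, 17.7-fold lower. PDE337 was 15.5-fold lower and ORP4C, named as an oxysterol-binding-related protein, 13.3-fold lower. OCT1 and CCD7 lost their call with slide as a block (adjusted p = 0.06 and 0.15) and on the first scan day (0.073 and 0.067).

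Among the genes most higher in gvs1-1, MRD1 differed least between the arrays of the mutant, with -2.94, -3.85 and -3.46 in Col and 1.32, 1.37 and 1.41 in gvs1-1, a difference of 4.78 ± 0.64 (27.5-fold, adjusted p = 0.00078). It was as different at DAE14, by 4.97, and the interaction of -0.19 did not pass (adjusted p = 0.90). With slide as a block MRD1 differed by 5.06 with adjusted p = 0.052. XTH6, a xyloglucan endotransglucosylase of the growing cell wall, was at -4.15, -4.75 and -3.87 in Col and -1.71, -0.13 and 0.24 in gvs1-1 (13.2-fold higher, adjusted p = 0.0005). ELP was at -0.90, 0.17 and 0.67 in Col and 2.91, 3.01 and 3.51 in gvs1-1 (8.96-fold higher, adjusted p = 0.00029). Both genotypes had far higher levels of XTH6 and ELP at DAE14, with means of 3.06 and 3.49 for XTH6 and 7.03 and 6.90 for ELP in Col and gvs1-1.

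The 4 defensin genes PDF1.2, PDF1.2c, PDF1.2B and PDF1.3, which encode antifungal peptides induced by ethylene and jasmonate, also ranked among the most higher genes, with a wide spread in gvs1-1. PDF1.2 was at -2.41, -3.58 and -2.73 in Col and at -1.49, -0.01 and 3.24 in gvs1-1, 11.2-fold higher on average with adjusted p = 0.038. Without gvs1-1 replicate 3 its difference fell from 3.49 to 2.16 and its adjusted p became 0.11. PDF1.2c, PDF1.2B and PDF1.3 were also lowest in replicate 1 and highest in replicate 3 of gvs1-1, with mean differences of 3.72, 3.70 and 3.55; these genes are near-identical copies and their probes may share signal. All 4 lost the call with slide as a block, on the first scan day and in 4 or 5 of the 6 fits that left out an array. OFP15, an ovate family protein, was 9.40-fold higher, but did not pass with slide as a block (adjusted p = 0.13) or on the first scan day (0.053). KCS8, an enzyme of very-long-chain fatty acid synthesis, was 7.14-fold higher, but passed with only 1 of the 6 arrays left out in turn. ERF6, an ethylene response factor of the stress response, had 0.16, -0.56 and -1.98 in Col and 1.53, 1.86 and 2.43 in gvs1-1 (6.64-fold higher, adjusted p = 0.0079; 0.068 with slide as a block).

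For some genes 1 genotype was not well above background on any array, so only a bound can be given, the mean of the bright group over the floor of detection in the dim one. This held for 151 genes dim in gvs1-1 and 23 dim in Col. NCED2, an enzyme of the step that commits carotenoids to abscisic acid, was at least 54.1-fold lower in gvs1-1, with Col levels of -4.94, -0.22 and 1.32. Its fitted difference of -7.02 was -8.85 without Col replicate 1 and -5.72 without Col replicate 3, and on the first scan day it was -3.36 and did not pass (adjusted p = 0.088). RGF3, a secreted peptide known from root meristems, was at least 18.9-fold lower, and NAC010, a NAC factor, at least 6.93-fold lower. In the other direction KNATM, a KNOX protein without a homeodomain, was at least 3.36-fold higher, HB53 at least 1.89-fold and RTFL3 at least 1.81-fold. KNATM, HB53 and RTFL3 changed sign when the background was corrected with normexp. The fitted difference of KNATM with slide as a block was 0.38 against 2.53, below its bound, and KNATM, HB53 and RTFL3 did not pass (adjusted p = 0.46, 0.31 and 0.053); HB53 and RTFL3 did not pass on the first scan day either (0.089 and 0.17).

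**Figure D1:**
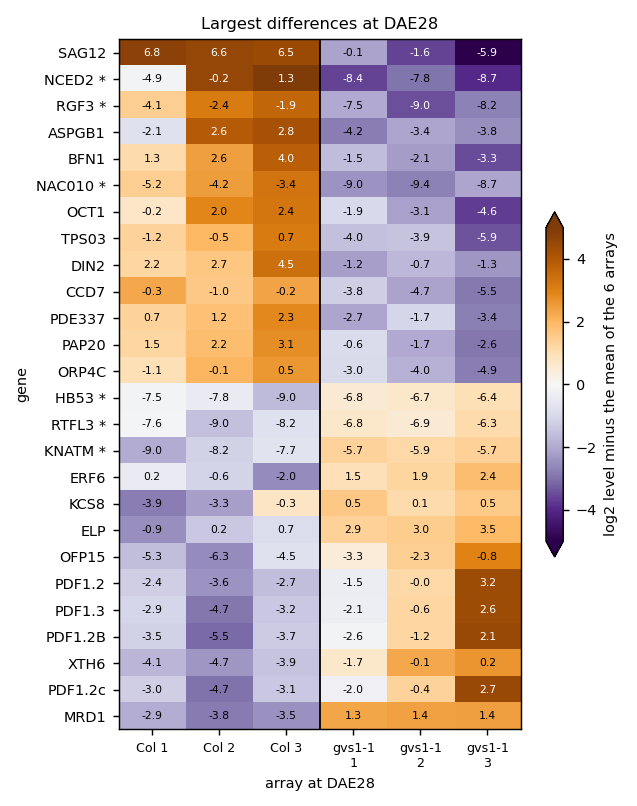
Levels of the 26 genes with the largest differences at DAE28, 1 row per gene and 1 column per array. The printed number is the log2 level relative to the 75th percentile of the array and the colour is that level minus the mean of the 6 arrays; an asterisk marks genes not well above background in 1 genotype. SAG12 is uniform in Col (6.81, 6.61 and 6.50) and scattered in gvs1-1 (-0.07, -1.56 and -5.92), ASPGB1 and NCED2 are low in Col replicate 1, and PDF1.2 is high in gvs1-1 replicate 3 (3.24).

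Of 23 senescence-associated genes measured, 10 were lower and 0 higher, beside 15.1% and 17.9% of all genes, with a median difference of -0.58. Of the 23, 14 were lower on every gvs1-1 array than on any Col array. Among all genes tested the groups did not overlap for 45.7%, in either direction. ERD1, the plastid Clp protease regulator also called SAG15, was at 5.89, 5.82 and 5.91 in Col and 5.00, 4.92 and 4.61 in gvs1-1 (-1.03 ± 0.11, adjusted p = 0.00037). SAG29, the sugar transporter SWEET15, was at 2.97, 4.37 and 5.08 in Col and 2.21, 2.54 and 1.08 in gvs1-1, a difference of -2.19 with adjusted p = 0.03 that was lost in 4 of the 6 fits that left out an array. SAG13 and SAG14 did not pass, at -1.82 ± 0.86 and -0.82 ± 0.38, and SAG101 was at 0.09 ± 0.28 and SEN1 at 0.67 ± 0.28. Slide as a block left 3 of the 23 lower, and the first scan day 7.

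Among 37 transcription factors of senescence 13 were lower, 4 higher and 20 did not pass, with a median of -0.37. The 13 made up 35.1%, against 15.1% of all genes, and the 4 made up 10.8%, below the 17.9% of all genes. NAP, a NAC factor that promotes chlorophyll loss, was at 5.31, 5.30 and 5.42 in Col and 4.05, 3.71 and 3.43 in gvs1-1 (-1.61 ± 0.21, 3.06-fold lower, adjusted p = 0.00065). NAP differed by -1.3 with slide as a block and did not pass (adjusted p = 0.079). ORE1, the NAC factor of age-dependent cell death, was at 4.62, 3.97 and 4.55 in Col and 3.60, 3.05 and 2.79 in gvs1-1. Its arrays did not overlap, but -1.24 ± 0.62 did not pass in the fit over 12 arrays (adjusted p = 0.15) and did in the fit of the 6 arrays alone (0.027). NAC047 was 5.01-fold lower, with levels of 2.91, 2.89 and 3.38 in Col and 1.26, 0.73 and 0.21 in gvs1-1. NAC055 and NAC019, which act in abscisic acid and jasmonate responses, differed by -2.88 ± 0.48 and -2.02 ± 0.29, MYB2 by -2.19 ± 0.30, WRKY6 by -1.23 ± 0.21 and WRKY45 by -1.14 ± 0.15. WRKY53, an early regulator, overlapped between the genotypes and had a difference of 0.56 ± 0.53 (adjusted p = 0.46), and WRKY70 one of 0.20 ± 0.43. The 4 higher genes were ERF4 (1.02 ± 0.25), PIF5 (0.63 ± 0.08), EIL1 (0.60 ± 0.12) and PIF4 (0.46 ± 0.13). PIF4, PIF5 and EIL1 are known as promoters of senescence in darkness or by ethylene. Slide as a block left 4 of the 37 lower and 2 higher, and the first scan day 10 and 1.

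**Figure D2:**
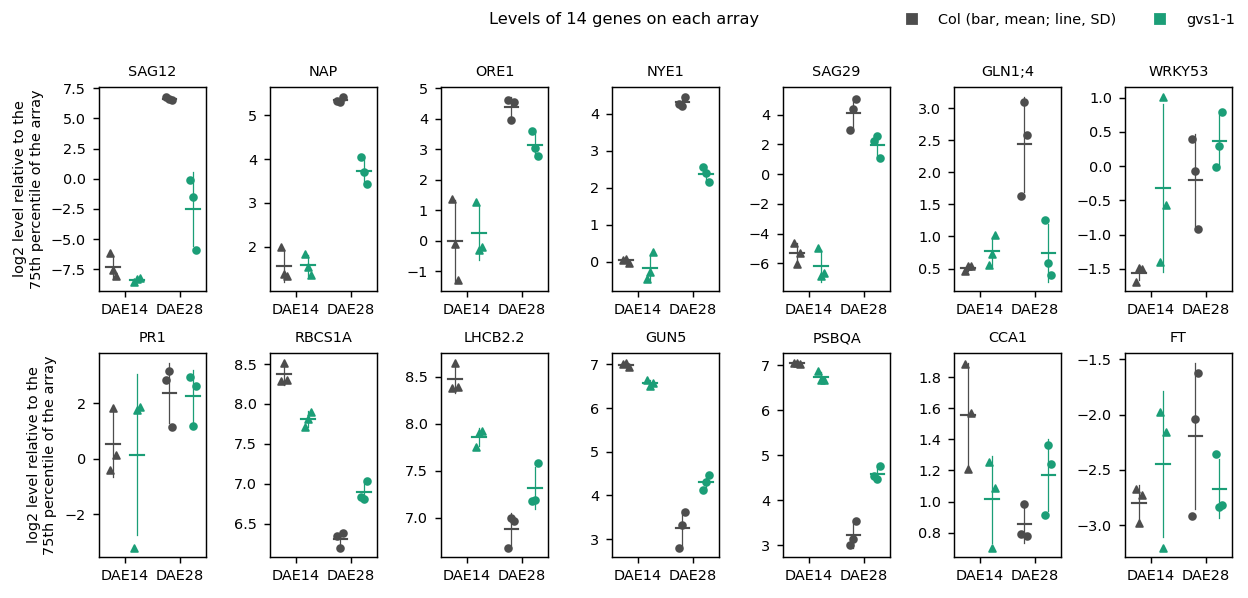
Log2 level relative to the 75th percentile of the array for 14 genes, with the 3 arrays of each genotype at DAE14 (triangles) and DAE28 (circles), a bar for the mean and a line for the SD; each panel has its own vertical scale. At DAE28 SAG12, NAP, ORE1, NYE1, SAG29 and GLN1;4 lie lower in gvs1-1 on every array, and RBCS1A, LHCB2.2, GUN5 and PSBQA higher, while WRKY53, PR1, CCA1 and FT overlap.

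Chlorophyll breakdown and synthesis differed in opposite directions. Of 17 breakdown genes 11 were lower and 2 higher in gvs1-1, beside 15.1% and 17.9% of all genes, with a median of -0.84. NYE1, the STAY-GREEN protein that takes magnesium from chlorophyll, was at 4.27, 4.22 and 4.47 in Col and 2.57, 2.39 and 2.15 in gvs1-1 (-1.95 ± 0.18, 3.87-fold lower, adjusted p = 0.00022). NYC1, a chlorophyll b reductase, was at 6.16, 5.81 and 6.01 against 4.53, 4.33 and 3.77 (3.44-fold lower), and PPH, which removes the phytol tail, at 5.10, 4.82 and 4.96 against 4.12, 4.12 and 4.0 (1.84-fold lower). PAO, the oxygenase that opens the ring, differed by -0.84 ± 0.19, and PES1, which esterifies the freed phytol, by -3.33 ± 0.39. ACD2, the next reductase of the pathway, was at -0.04 ± 0.17. CLH1, a chlorophyllase known from wounding and not needed for senescence, was higher by 1.31 ± 0.26. The counts were 9 lower and 1 higher with slide as a block, and 10 and 2 on the first scan day.

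Of 24 chlorophyll synthesis genes 17 were higher and 0 lower, beside 17.9% and 15.1% of all genes, with a median of 0.70. CHLM, the magnesium protoporphyrin methyltransferase, was at 1.31, 1.62 and 2.05 in Col and 2.91, 2.98 and 3.22 in gvs1-1 (2.59-fold higher). GUN5, the H subunit of magnesium chelatase, was at 2.81, 3.33 and 3.61 against 4.13, 4.31 and 4.46 (2.08-fold higher). PORB, a protochlorophyllide reductase, was 2.91-fold higher, and AT1G74470, the locus listed for geranylgeranyl reductase, 2.09-fold higher. HEMA1, the first committed enzyme, differed by 0.61 ± 0.18, and GSA1, HEMB1 and HEMC were at 0.15 ± 0.17, 0.15 ± 0.12 and 0.23 ± 0.12 and did not pass. The Col arrays spread more than the gvs1-1 arrays here: the mean level of the 24 genes was 0.57, 0.80 and 1.2 in Col and 1.69, 1.61 and 1.71 in gvs1-1. The first scan day gave 16 higher, and slide as a block 5, with a median of 0.83; without gvs1-1 replicate 2 there were 11.

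Nuclear genes of the photosynthetic apparatus were higher in gvs1-1, with list medians under 2-fold. Among all genes 17.9% were higher and 15.1% lower. Of 21 antenna genes 17 were higher and 0 lower (median 0.90), of 31 photosystem and electron transport genes 29 and 0 (median 0.80), of 21 carbon fixation genes 16 and 0 (median 0.68), of 14 photorespiration genes 10 and 0 (median 0.61), and of 28 plastid ribosomal protein genes 27 and 0 (median 0.90). The mean level of the 31 photosystem genes was 4.42, 4.69 and 4.77 in Col and 5.31, 5.33 and 5.55 in gvs1-1, without overlap. LHCB4.2 and LHCA2, antenna proteins of photosystem II and photosystem I, were 2.48-fold and 2.15-fold higher, LHCB5 1.87-fold and LHCB3 2.31-fold. LHCB2.2 was at 6.69, 7.0 and 6.97 in Col and 7.18, 7.19 and 7.58 in gvs1-1, a difference of 0.43 ± 0.14 (adjusted p = 0.036) that passed in 3 of the 6 fits that left out an array; its 3 other probes differed by 1.36 on average.

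PSBQA, a subunit of the oxygen-evolving complex, was at 3.02, 3.13 and 3.54 in Col and 4.53, 4.48 and 4.76 in gvs1-1 (2.57-fold higher, adjusted p = 0.00029). FD2, the main leaf ferredoxin, was 1.81-fold higher and FNR2, the ferredoxin reductase, 1.83-fold, while PSBR and PSBO1 did not pass, at 0.08 ± 0.20 and 0.20 ± 0.11. The Rubisco small subunit genes RBCS1A, RBCS1B and RBCS3B were 1.5-fold, 1.68-fold and 1.95-fold higher by their brightest probes, with differences of 0.58, 0.74 and 0.96. Their 12, 3 and 3 other probes differed by 0.91, 1.17 and 1.22 on average. These copies are alike in sequence and their probes may share signal. RBCS1A was at 6.34, 6.2 and 6.39 in Col and 6.83, 6.81 and 7.04 in gvs1-1. HCEF1, the plastid fructose bisphosphatase, was 1.63-fold higher, and RCA, the Rubisco activase, was at 0.18 ± 0.12. In photorespiration the glycolate oxidases GOX1 and GOX2 and the plastid glutamine synthetase GS2 were 1.57-fold, 1.49-fold and 1.72-fold higher. Among plastid ribosomal proteins AT2G43030 was 2.22-fold higher, EMB3137 1.75-fold and RPL12-A 1.65-fold.

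Under slide as a block the counts of these lists were 2, 10, 1, 1 and 8 higher, in the order antenna, photosystem, carbon fixation, photorespiration and ribosomal proteins, with medians of 0.63, 0.62, 0.58, 0.44 and 1.2. Without gvs1-1 replicate 1 or replicate 2, 6 and 5 photorespiration genes were higher. RBCS1A differed with slide as a block by 0.46 (adjusted p = 0.17) and GUN5 by 0.83 (0.050). On the first scan day the counts were 15, 26, 16, 10 and 25. The transcriptional regulators of chloroplasts differed in a mixed way: of 10, 4 were higher and 2 lower, beside 17.9% and 15.1% of all genes. GLK1 and GLK2, which drive photosynthesis genes, were at 1.89, 2.1 and 1.98 against 2.83, 2.95 and 3.03 and at 2.77, 2.68 and 2.71 against 3.38, 3.55 and 3.62, or 1.93-fold and 1.73-fold higher in gvs1-1. SIG6, a plastid sigma factor, was 1.84-fold higher, and HY5, the bZIP factor of light signalling, 2.73-fold lower, at 0.28, 0.56 and 0.60 in Col and -0.84, -0.84 and -1.23 in gvs1-1.

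**Figure D3:**
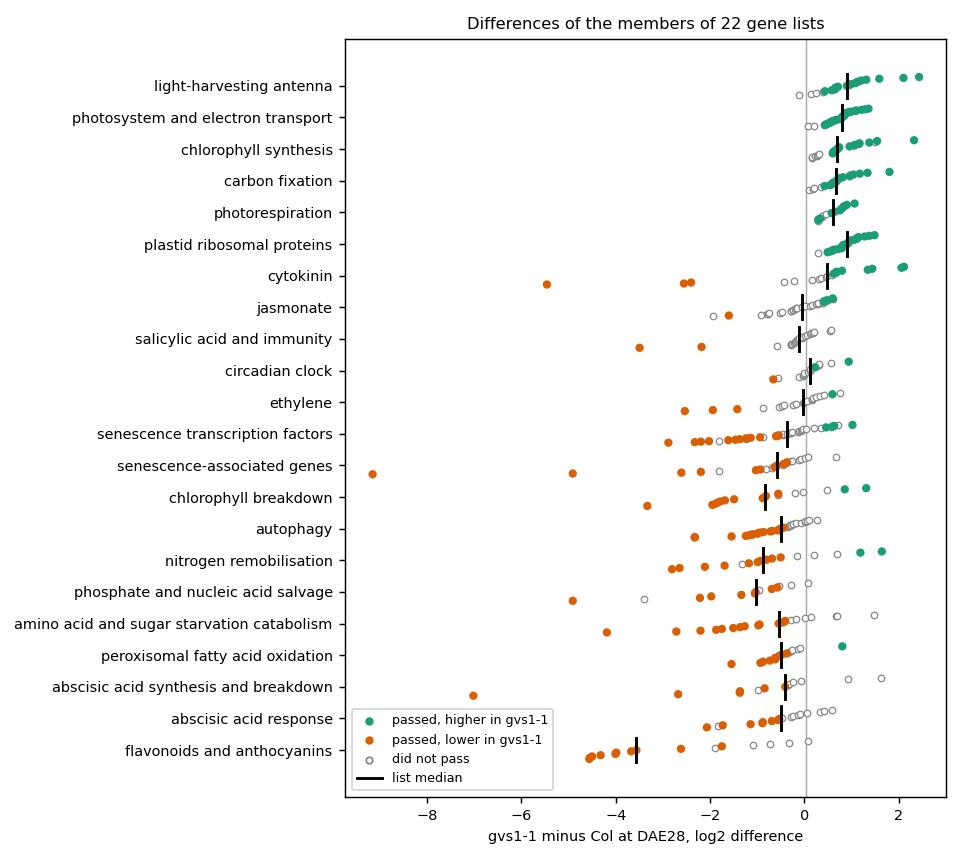
Log2 difference of gvs1-1 minus Col at DAE28 for every measured member of 22 gene lists, 1 row per list and 1 point per gene, filled where the adjusted p was under 0.05, with a black bar for the list median and a grey line for the median of all genes (0.04). The lists of photosynthesis lie to the right with medians of 0.61 to 0.90, those of degradation and salvage to the left with medians of -1.03 to -0.49.

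Autophagy carries cell contents to the vacuole. Of 33 autophagy genes 18 were lower and 0 higher, beside 15.1% and 17.9% of all genes, with a median of -0.49. ATG7, the activating enzyme of both conjugation systems, was at 2.11, 2.45 and 3.22 in Col and 0.47, 0.30 and 0.05 in gvs1-1 (5.00-fold lower, adjusted p = 0.00028). ATG8H, a ubiquitin-like protein of the autophagosome membrane, was at 2.36, 3.03 and 3.83 against 0.75, 0.85 and 0.65 (5.01-fold lower), and ATG9, a membrane protein, 2.14-fold lower. Of the 9 ATG8 genes 8 were lower; ATG8F was at -0.06 ± 0.14. ATG12A and ATG12B, at 0.00 ± 0.09 and 0.05 ± 0.15, and NBR1, a cargo receptor, at -0.33 ± 0.14, did not pass. Of the 33, 10 were lower with slide as a block and 8 on the first scan day.

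Of 16 genes of nitrogen remobilisation 10 were lower and 2 higher, beside 15.1% and 17.9% of all genes, with a median of -0.87. NRT1.5, a nitrate transporter, was at 2.90, 2.86 and 3.47 in Col and 0.05, 0.52 and 0.23 in gvs1-1 (7.0-fold lower, adjusted p = 0.00022). The cytosolic glutamine synthetases GLN1;1, GLN1;2, GLN1;3 and GLN1;4, which load nitrogen for export, differed by -1.18 ± 0.20, -0.50 ± 0.14, -0.99 ± 0.16 and -1.69 ± 0.33. GLN1;4 was at 1.63, 3.09 and 2.59 in Col and 1.26, 0.58 and 0.40 in gvs1-1, and on the first scan day its difference of -0.89 did not pass. The glutamate dehydrogenases differed in opposite directions: GDH2 was at 2.61, 3.14 and 3.29 in Col and 1.21, 0.91 and 0.59 in gvs1-1 (4.31-fold lower), and GDH1 at -0.25, 0.20 and 0.37 against 1.19, 1.07 and 1.61 (2.28-fold higher). The list had 7 lower and 1 higher with slide as a block, and 4 and 2 on the first scan day.

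Phosphate and nucleic acid salvage had 8 of 13 genes lower and 0 higher (median -1.03), BFN1 among them. PLDZETA2, a phospholipase induced by phosphate starvation, was 3.93-fold lower and RNS2, a vacuolar ribonuclease, 1.61-fold lower. Of 21 genes of amino acid catabolism and sugar starvation 14 were lower and 0 higher (median -0.54). BAC2, a mitochondrial carrier of basic amino acids, was 6.56-fold lower, AT5G38710, a proline dehydrogenase locus, 3.36-fold and PYD1, of pyrimidine breakdown, 2.84-fold, its other probe differing by -0.85. In peroxisomal fatty acid oxidation 9 of 16 were lower and 1 higher (median -0.50), with ACX2, an acyl-CoA oxidase, 2.92-fold lower, MFP2 1.91-fold lower and the malate dehydrogenase PMDH2 1.75-fold higher. CSY2, a peroxisomal citrate synthase, was 1.83-fold lower by its brightest probe, but its other probe differed by 0.47 in the opposite direction. In these 3 lists 6, 6 and 6 genes were lower with slide as a block, and 6, 12 and 7 on the first scan day. Of 10 sugar transport genes only SAG29 passed, beside 33.1% of all genes. SWEET11, SWEET12 and SUC2 were at -0.01 ± 0.13, -0.27 ± 0.24 and 0.31 ± 0.13.

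Genes of abscisic acid were lower where they passed. In synthesis and breakdown 6 of 13 genes were lower and 0 higher (median -0.40), beside 15.1% and 17.9% of all genes. AAO3, the aldehyde oxidase of the last step, was at 2.48, 2.40 and 2.91 in Col and 1.37, 1.44 and 0.86 in gvs1-1 (2.59-fold lower), ABA3, which activates its cofactor, 1.79-fold lower, and CYP707A1, which degrades the hormone, 2.58-fold lower. NCED3, the drought-induced dioxygenase, was at -0.33 ± 0.15. Of 18 response genes 8 were lower and 0 higher (median -0.50). These were mainly phosphatases that restrain the pathway and are induced by it: HAI2 was 4.19-fold lower, and ABI1, ABI2, HAB1, HAB2 and PP2CA differed by -0.89 ± 0.17, -1.14 ± 0.22, -0.88 ± 0.18, -0.53 ± 0.11 and -0.69 ± 0.16. RD20, a caleosin, was 3.32-fold lower, at 5.24, 5.32 and 5.35 in Col and 3.79, 3.95 and 2.98 in gvs1-1, while RD29A, RAB18 and KIN1 were at 0.33 ± 0.22, -0.29 ± 0.46 and -0.10 ± 0.30. In these lists 3 and 4 genes were lower and 1 and 0 higher with slide as a block, and on the first scan day 3 and 8 were lower.

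Ethylene genes passed in 4 of 20 cases, 3 lower and 1 higher, a smaller share than the 33.1% of all genes. ACS7 and ACS2, which make the ethylene precursor, were 5.79-fold and 3.84-fold lower. EIL1 was the higher gene, and EIN3 and EIN2 were at -0.03 ± 0.16 and 0.06 ± 0.15. Among 19 cytokinin genes 8 were higher and 3 lower (median 0.48), or 42.1% and 15.8%. The lower share was near the 15.1% of all genes, of which 17.9% were higher. IPT3, a synthesis enzyme, was at -1.68, -1.6 and -0.62 in Col and 0.08, 0.13 and 0.21 in gvs1-1 (2.71-fold higher), the receptor AHK2 was 1.74-fold higher and ARR4, a response regulator induced by cytokinin, 1.61-fold higher. CKX5, an oxidase that degrades cytokinin, was at 0.18, 1.11 and 1.82 in Col and -1.32, -1.36 and -1.42 in gvs1-1 (5.29-fold lower). For cytokinin 1 gene was higher and 2 lower with slide as a block, and on the first scan day 7 and 1. Without Col replicate 1, Col replicate 2, gvs1-1 replicate 2 or gvs1-1 replicate 3 there were 5, 4, 5 and 4 higher cytokinin genes. For ethylene 2 genes were higher and 1 lower with slide as a block, and 0 and 3 on the first scan day.

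Jasmonate and salicylic acid genes passed in few cases, fewer than the 33.1% of all genes. Of 31 jasmonate genes 3 were higher and 1 lower (median -0.05): the plastid enzymes LOX2 and AOC4 and the repressor JAZ3 were 1.39-fold, 1.52-fold and 1.33-fold higher, and LOX1, which makes other oxylipins, 3.04-fold lower. On the first scan day, and with slide as a block, 0 of the 31 passed. Of 22 genes of salicylic acid and immunity 0 were higher and 2 lower (median -0.12), ICS2, a minor isochorismate synthase, by 4.53-fold and BSMT1, a salicylate methyltransferase, by 11.3-fold, although BSMT1 was above background on only 1 gvs1-1 array. Neither passed with slide as a block (adjusted p = 0.20 for ICS2 and 0.53 for BSMT1, whose difference went from -3.49 to -1.31) or on the first scan day (0.12 and 0.15), where 0 of the 22 passed. ICS1, the main isochorismate synthase, was at -0.11 ± 0.42. PR1, the marker of salicylic acid responses, was at 2.85, 3.16 and 1.15 in Col and 2.95, 1.19 and 2.64 in gvs1-1, a difference of -0.13 ± 1.25 with a single low array in each genotype. Of 6 genes of ethylene and jasmonate defence 3 were higher, all defensins, and HCHIB, a basic chitinase, was 1.6-fold lower; with slide as a block the 3 defensins did not pass.

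Flavonoid and anthocyanin genes had the lowest median of the lists, -3.56, with 10 of 15 genes lower and 0 higher, but the arrays of each genotype scattered so far that the genotypes overlapped for most of them. Only 2 of the 15 genes were lower on every gvs1-1 array, while the groups did not overlap for 45.7% of all genes. DFR, dihydroflavonol reductase, was at -1.78, 2.64 and 3.98 in Col and -4.65, -0.23 and -3.91 in gvs1-1, a difference of -4.55 ± 1.47 with adjusted p = 0.038. TT4, chalcone synthase, was at -2.39, 1.87 and 3.68 against -5.21, -0.73 and -3.86, and LDOX, the anthocyanidin synthase, at -4.34, 0.40 and 2.13 against -5.70, -2.68 and -5.44. In all 3 genes Col replicate 1 lay below gvs1-1 replicate 2. The regulators PAP1 (AT1G56650) and PAP2 (AT1G66390) were 3.36-fold and 22.6-fold lower, with PAP1 at 2.93, 3.55 and 4.13 in Col and 1.67, 2.68 and 1.01 in gvs1-1. PAP2 was at -2.90, -0.72 and 0.46 in Col and -4.20, -4.66 and -7.81 in gvs1-1, and above background on only 2 gvs1-1 arrays. With slide as a block PAP2 differed by -5.09 and did not pass (adjusted p = 0.082). On the first scan day its difference was -2.65. AT4G14090, an anthocyanin glucosyltransferase locus, was 11.8-fold lower. On the first scan day, where Col replicate 1 is the only Col array, the list median was -0.87 and 0 genes passed; with slide as a block 3 passed, and with 1 array left out 2 to 12. ADPG1, a polygalacturonase of cell separation, and XTH31 scattered as widely in Col (-3.36, 0.33 and 1.55; -6.70, -5.37 and -1.58). ADPG1 was 26.0-fold lower in gvs1-1 (adjusted p = 0.012) but not with slide as a block (0.054) or on the first scan day (0.35). XTH31, at 1.46, did not pass (0.36), and did on the first scan day (3.61, 0.020).

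Apart from redox genes, the lists of this paragraph passed in smaller shares than the 33.1% of all genes. Of 17 clock genes 2 were higher and 1 lower (median 0.11): RVE1 was 1.92-fold higher, PRR7 1.17-fold higher and PRR9 1.58-fold lower. CCA1, the morning oscillator gene, was at 0.79, 0.99 and 0.78 in Col and 0.91, 1.36 and 1.24 in gvs1-1 (0.32 ± 0.20, adjusted p = 0.24). Of 21 redox genes 4 were higher and 4 lower, beside the 33.1% of all genes that passed, with the mitochondrial alternative oxidase AOX1A 2.02-fold lower, the catalase CAT1 1.61-fold and the cytosolic peroxidase APX1 1.40-fold lower, and the superoxide dismutase CSD3 1.78-fold higher. Of 13 heat shock genes HSP70 was 1.91-fold lower and HSFA3 1.61-fold higher, although HSFA3 was at -0.073 after normexp correction; the list median was -0.91. Of 21 glucosinolate genes 3 were higher, CYP79B3, MYB29 and CYP83B1, by 2.01-fold, 1.44-fold and 1.51-fold. Of 10 genes of phase change and flowering only SPL3 passed, 2.07-fold higher; FT, the mobile flowering signal, was at -2.92, -2.04 and -1.62 against -2.36, -2.84 and -2.82 (-0.48 ± 0.37). Of 13 cell division genes CDKB2;2 was 1.79-fold lower, and CYCA2;3 passed although it was not well above background on any of the 6 arrays and changed sign after normexp correction. RVE1, PRR7, PRR9, CAT1, APX1, HSP70, HSFA3, CYP83B1, MYB29, SPL3 and CDKB2;2 did not pass with slide as a block. The clock list had 0 higher and 1 lower on the first scan day, redox 2 and 2, heat shock 1 and 0, glucosinolates 1 and 0, cell division 2 and 0, and phase change 1 and 0.

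Markers of leaf cell types were mostly measured, and those of other organs mostly not. All 6 mesophyll markers were measured and 5 were higher in gvs1-1 (median 0.70); they are photosynthesis genes and belong to the lists above. In the epidermis 3 of 8 markers were higher: ATML1, the factor of epidermal identity, was at -0.96, -0.78 and -0.76 in Col and 0.14, 0.25 and 0.33 in gvs1-1 (2.11-fold higher), PDF2 1.57-fold and CER5 1.77-fold higher, while GL2 and CER1 were at 0.16 ± 0.18 and -0.12 ± 0.57. Of 9 guard cell markers the channels KAT1 (AT5G46240) and SLAC1 were 2.45-fold and 2.0-fold lower, and MYB60 and GORK were at 0.02 ± 0.25 and 0.01 ± 0.26. KAT1 and SLAC1 passed neither with slide as a block (adjusted p = 0.071 and 0.061) nor on the first scan day (0.092 and 0.14), and the guard cell median of -0.04 was 0.19 on that day. Of 9 vascular markers SEOR1 was 2.12-fold higher and APL 1.61-fold lower. Guard cell and vascular markers both passed in smaller shares than the 33.1% of all genes. Only 3 of 9 flower and meristem markers were measured above the filter, with PI 2.91-fold lower and SEP3 1.87-fold higher at low levels (SEP3 was at -0.18 after normexp correction), together with 1 of 5 root markers, PYK10, and 0 of 4 seed markers. PYK10 overlapped, at -4.23, -4.95 and -2.68 in Col and -1.82, -2.43 and -6.48 in gvs1-1. Averaged over a list, the 9 guard cell markers had mean levels of -2.25, -2.02 and -1.52 in Col and -2.27, -2.06 and -2.05 in gvs1-1, and the 8 epidermal markers -1.22, -1.37 and -0.52 against -0.74, -0.21 and -0.55; their part in the results was not tested. Slide as a block left 0 mesophyll, 1 epidermal, 0 guard cell and 0 vascular markers higher and 0 in each lower, and on the first scan day 4, 3, 0 and 2 were higher and 0, 0, 0 and 1 lower. In whole leaves fewer cells of a type and less RNA per cell cannot be told apart.

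At DAE14 the same genotypes differed in 60 genes, 0.313% of those tested, and 39 of these were also called at DAE28. The difference at DAE28 differed from that at DAE14 in 3572 genes, 18.7%, by the interaction test, 1898 of them positive and 1674 negative; 3102 of the 3572 were called at DAE28. Of the 143 genes named here 94 passed the interaction and 5 differed at DAE14: MRD1, PSAN, PSAE-1, HCEF1 and FRO6. At DAE14 the 3 Col arrays were on slide 1, gvs1-1 replicates 1 and 2 on slide 2 and gvs1-1 replicate 3 on slide 3. Thus no slide held both genotypes at either stage, and within a stage genotype and slide cannot be told apart. For photosynthesis genes the medians at the earlier stage had the opposite sign. The median difference was -0.58 for the antenna, -0.46 for photosystems and -0.54 for carbon fixation at DAE14, against 0.90, 0.80 and 0.68 at DAE28, and the interaction passed in 17 of 21, 29 of 31 and 16 of 21 genes. PSAN, a photosystem I subunit, had mean levels of 7.96 in Col and 6.92 in gvs1-1 at DAE14 and of 5.37 and 6.13 at DAE28, with differences of -1.04 and 0.76.

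The 5 genes with a symbol and the smallest p in the interaction were FRO6, FRO7, RGLG3, PSAE-1 and PSAN. FRO7, the chloroplast iron reductase, was at 2.86, 2.64 and 2.75 in Col and 4.02, 4.16 and 4.18 in gvs1-1 at DAE28 (2.58-fold higher), against a difference of -0.53 at DAE14. FRO6, another iron reductase of that family, was 2.11-fold higher at DAE28 and differed by -0.56 at DAE14. RGLG3, a ubiquitin ligase, was 2.92-fold lower at DAE28 and at 0.16 at DAE14. For breakdown and recycling genes the DAE14 differences were near 0, with list medians of 0.05 for chlorophyll breakdown, 0.08 for autophagy and 0.07 for nitrogen remobilisation. With slide as a block the interaction passed in 1044 genes. On the first scan day Col at DAE28 and gvs1-1 at DAE14 had 1 array each, so no interaction count is given for it.

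**Figure D4:**
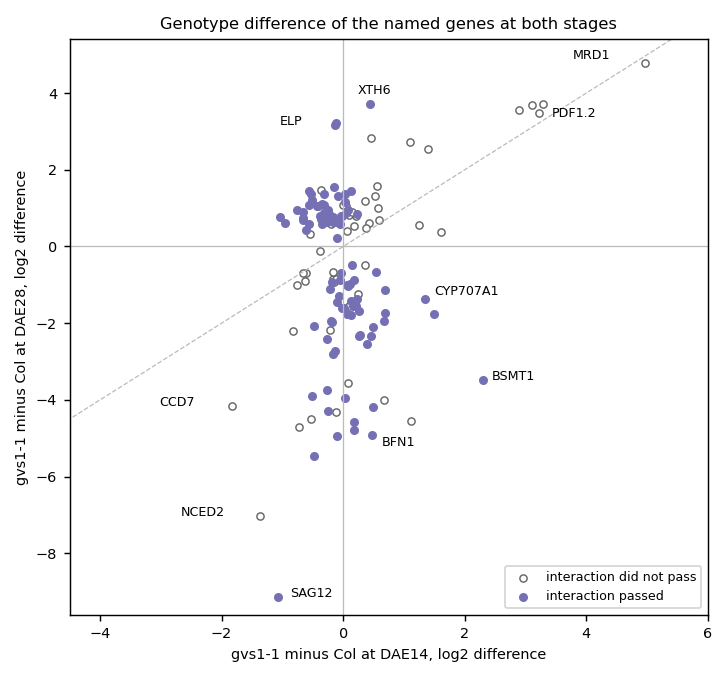
Log2 difference of gvs1-1 minus Col at DAE14 (horizontal) and DAE28 (vertical) for the 143 named genes, filled where the interaction passed; the dashed line marks equal differences. Most points lie near 0 at DAE14 and away from 0 at DAE28, while MRD1 (4.97 and 4.78) and the defensins, among them PDF1.2 (3.23 and 3.49), lie near the dashed line.

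Among the 136 named genes that passed, all 136 had the same sign with slide as a block, and 66 passed again. On the first scan day all 136 kept their sign too, but this is no separate check. It sets the same 3 gvs1-1 arrays against Col replicate 1, so the sign is fixed in advance where the groups do not overlap. With each of the 6 arrays left out in turn, 112 of the 136 passed every time. The other 24 were PDF1.2, PDF1.2c, PDF1.2B, PDF1.3, KCS8, HB53, LHCB2.2, SAG29, JAZ3, BSMT1, HCHIB, PRR7, HSP70, PAP1, MYB29, CYP83B1, CYCA2;3, APL, CER5, PI, SEP3, LDOX, TT4 and DFR. HCHIB (-0.66) and APL (-0.66) lost the call only without gvs1-1 replicate 2, and PAP1 (-1.36) and HB53 (1.33) only without gvs1-1 replicate 3. DFR, TT4 and LDOX lost it without Col replicate 2, Col replicate 3, gvs1-1 replicate 1 or gvs1-1 replicate 3, with lowest sizes of -3.36, -3.01 and -2.64 without Col replicate 3. A set of 55 genes passed in every setting tried, among them BFN1, NYE1, NYC1, PPH, NAC047, ATG7, ATG8H, NRT1.5, GDH2, BAC2, XTH6, ELP, GLK2, HY5, PSBQA and CHLM. Described genes that did not pass again with slide as a block were SAG12, OCT1, CCD7, MRD1, PDF1.2c, PDF1.2B, PDF1.3, PDF1.2, OFP15, KCS8, ERF6, KNATM, HB53, RTFL3, NAP, RBCS1A, LHCB2.2, SAG29, GUN5, GLK1, CLH1, PORB, LHCB5, FNR2, HCEF1, RBCS3B, RBCS1B, GOX2, GOX1, GS2, RPL12-A, PMDH2, AAO3, CYP707A1, ABI1, ACS7, AOC4, LOX2, JAZ3, LOX1, ICS2, BSMT1, ARR4, IPT3, RVE1, PRR7, PRR9, CAT1, APX1, HSP70, HSFA3, PAP2, AT4G14090, MYB29, CYP83B1, CDKB2;2, SPL3, KAT1, SLAC1, APL, SEOR1, PDF2, CER5, PI, PSAN, LHCB3, PSAE-1, TT4 and ADPG1. Those that did not pass on the first scan day were OCT1, CCD7, PDF1.2c, PDF1.2B, PDF1.3, PDF1.2, OFP15, HB53, RTFL3, NCED2, RBCS1A, LHCB2.2, SAG29, GLN1;4, CYP707A1, EIL1, AOC4, LOX2, JAZ3, LOX1, ICS2, BSMT1, RVE1, PRR7, APX1, HSP70, PAP2, AT4G14090, PAP1, MYB29, CYP83B1, CDKB2;2, CYCA2;3, KAT1, SLAC1, PI, SEP3, LDOX, TT4, DFR and ADPG1.

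List medians also moved. On the first scan day flavonoids went from -3.56 to -0.87, heat shock from -0.91 to -0.23, abscisic acid response from -0.50 to -0.82, abscisic acid synthesis from -0.40 to -0.70, senescence transcription factors from -0.37 to -0.60 and photorespiration from 0.61 to 0.93. Slide as a block moved nitrogen remobilisation from -0.87 to -1.26, phosphate salvage from -1.03 to -1.51, abscisic acid response to -0.33 and mesophyll markers from 0.70 to 0.46. Without Col replicate 1 abscisic acid response was at -0.18, without Col replicate 3 heat shock at -0.28, and without gvs1-1 replicate 3 senescence transcription factors at -0.23. Normexp took chloroplast regulators from 0.41 to 0.21 and cytokinin from 0.48 to 0.13.

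**Figure D5:**
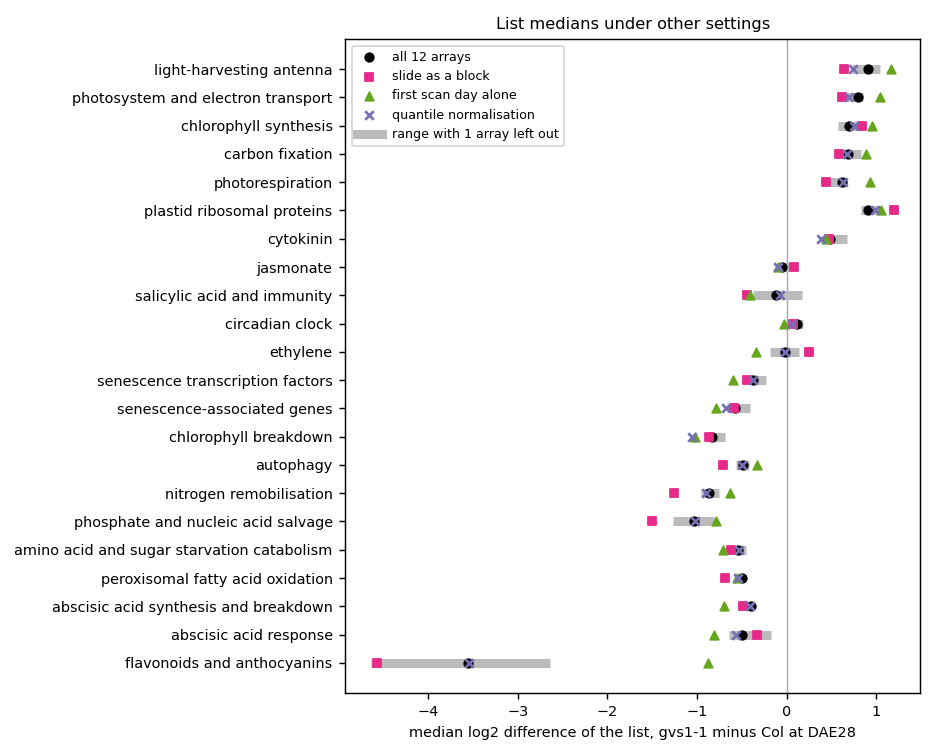
Median log2 difference of gvs1-1 minus Col at DAE28 for 22 gene lists in the fit of all 12 arrays (black), with slide as a block, on the first scan day alone and after quantile normalisation, and, as a grey bar, the range when each of the 6 arrays was left out. The photosynthesis lists stay above 0 and the degradation lists below 0 in each of these settings, and the flavonoid list spans from -4.63 to -2.64 when single arrays are left out.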

How the data were processed

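Each of 12 arrays (1 colour, Cy3) held 1 sample, 3 per genotype and stage. The authors deposited scanner intensity files made with Agilent Feature Extraction, version 11.5 per the submitters' processing notes, and a table of log2 values per locus; neither the labels nor the table state its normalization. The processed intensity of each probe, background-subtracted by the scanner software per the file headers, was put on a log2 scale and the array's 75th percentile subtracted. Control and outlier-marked spots were left out, and a probe was kept where all 3 arrays of some group marked it as well above background; the brightest probe stood for its gene. Of 43603 probes 34348 matched 25410 loci, and 26801 kept probes gave 19152 genes. At DAE28 67.4% to 72.5% of spots were well above background and 0 were saturated. The number of arrays limits the precision. The authors' log2 table correlated at 0.995 or more with the scanner values over 13416 loci with 1 probe and served as an alternative.

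Genotypes were compared with limma 3.58.1 (R 4.3.3), lmFit and eBayes, 4 groups in 1 fit, with Benjamini-Hochberg adjustment over all genes; the interaction is the difference at DAE28 minus that at DAE14. The fit was tested on simulated data with 200 changed genes. Alternatives were quantile normalization, median centring, normexp background correction (offset 50, on median signals, since the files used hold no mean signal), other filters, the mean of probes, the authors' table, 6 arrays alone, replicate, slide or scan day as blocks, and each array left out; slide as a random block was chosen after seeing the data. Of 5874 genes with several kept probes, 3 had probes called in opposite directions.

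Named genes were, among genes with a symbol, the 10 most higher and the 10 most lower, the 3 largest bounds in each direction, a panel of 14, up to 3 members of each gene list in its prevailing direction and 1 in the other, the 5 of smallest p in the interaction and the 5 of widest spread per genotype. Other list members are named to show what did not pass, and 1 named gene is not reported here. The comparison, lists and members were chosen with earlier results of these data known. The 37 lists hold 630 loci, of which 595 were measured. The aquaporin and proteasome families were left out because their name patterns took in other genes.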

Additional observations from a re-analysis of the deposited data

Results flagged for a closer look

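The genotype difference at DAE28 minus that at DAE14, on the log2 scale, passed the interaction test (limma, adjusted p under 0.05) in 94 of the 143 named genes, and the values of those described in the text are given in parentheses. Across all genes the interaction passed in 18.7%. Negative values mean that the difference of gvs1-1 minus Col was lower at DAE28 than at DAE14, and some genes changed sign. BSMT1 differed by 2.29 at DAE14 and -3.49 at DAE28, and PAP1 by 1.49 and -1.75, although neither DAE14 difference passed. Among the largest lower genes and those with bounds the values were SAG12 (-8.09), BFN1 (-5.39), NAC010 (-4.98), RGF3 (-4.98), ASPGB1 (-4.83), OCT1 (-4.77), DIN2 (-4.68), TPS03 (-4.04), PDE337 (-3.98), ORP4C (-3.47) and PAP20 (-3.37). Regulators and chlorophyll breakdown genes gave NAC047 (-2.58), WRKY45 (-1.83), NAP (-1.62), HY5 (-1.35), NYC1 (-1.91), NYE1 (-1.75), PPH (-1.07) and ERD1 (-1.11). Genes of recycling and catabolism gave ATG8H (-2.79), ATG7 (-2.59), ATG9 (-0.89), NRT1.5 (-2.64), GDH2 (-2.60), GLN1;4 (-1.95), GLN1;3 (-1.11), BAC2 (-2.57), AT5G38710 (-1.81), PYD1 (-1.71), PLDZETA2 (-1.78), RNS2 (-0.66), ACX2 (-1.75), CSY2 (-0.82) and MFP2 (-0.74). Hormone and defence genes gave BSMT1 (-5.79), ACS7 (-2.92), ACS2 (-2.62), CYP707A1 (-2.71), AAO3 (-1.6), RD20 (-2.43), HAI2 (-1.58), CKX5 (-2.14), LOX1 (-1.59) and HCHIB (-1.22), and the remaining negative values were PAP1 (-3.24), KAT1 (-1.22), AOX1A (-1.07), APX1 (-0.63) and RGLG3 (-1.71).

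Positive values among light-harvesting and photosystem genes were LHCB2.2 (1.05), LHCB4.2 (1.39), LHCA2 (1.45), LHCB5 (1.56), LHCB3 (1.72), FD2 (1.08), FNR2 (1.19), PSBQA (1.67), PSAE-1 (1.57) and PSAN (1.80). Carbon fixation and photorespiration gave RBCS1A (1.15), RBCS1B (1.40), RBCS3B (1.71), HCEF1 (1.37), GOX1 (0.90), GOX2 (0.92) and GS2 (0.94). Chlorophyll synthesis gave CHLM (1.35), GUN5 (1.48), AT1G74470 (1.48) and PORB (1.7), plastid ribosomal proteins EMB3137 (1.06), RPL12-A (1.08) and AT2G43030 (1.11), and chloroplast regulators GLK1 (0.87), GLK2 (0.81) and SIG6 (0.84). Growth and cell wall genes gave XTH6 (3.28), ELP (3.30), OFP15 (3.36), HB53 (2.02), ATML1 (1.39) and PDF2 (0.77). The others were FRO6 (1.64), FRO7 (1.90), PMDH2 (1.18), RVE1 (1.19), PRR7 (0.33), CSD3 (0.61), EIL1 (0.65), PIF5 (0.80), AHK2 (0.84), ARR4 (0.99) and IPT3 (1.3). HB53 was well above background only in gvs1-1 at DAE28, and RGF3 only in Col at DAE28. SAG12, OCT1, PDE337, PAP20 and ACS7 were not well above background on any DAE14 array of either genotype. NAC010, BSMT1 and CYP707A1 were not on any Col array at DAE14, nor was NAC010 on any gvs1-1 array at DAE28. DIN2 and ORP4C were so on few DAE14 arrays. The interaction values of these genes thus involve levels at the limit of detection.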

How the results depend on the processing

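The 3437 higher genes became 1636 with normexp correction and 821 with slide as a fixed block, and the 2900 lower genes 942 with slide as a fixed block and 1618 on the first scan day alone; 13 of the 6337 genes changed direction with slide as a block, and the cause was not tested. With 1 array left out the counts ranged from 2558 to 3493 higher and 2115 to 2885 lower. The 3572 interaction calls became 1511 with normexp, 1044 with slide as a fixed block, 2204 with slide as a random block, chosen after seeing the data, 897 with scan day as a block, 1489 on the first scan day, and 2364 to 4919 with 1 array left out. Normexp moved the median difference of all genes from 0.04 to -0.12 and reversed KNATM (-0.21), HB53 (-0.37), RTFL3 (-0.36), HSFA3 (-0.073), CYCA2;3 (-0.53) and SEP3 (-0.18); the cause was not tested. Deviations from the group mean correlated at -0.27 to -0.14 between same-numbered DAE28 arrays of the genotypes (3 pairs). Between other numbers they correlated at -0.10 to 0.29 (6 pairs). So few pairs cannot settle whether the numbers pair the arrays. The replicate block gave 3214 higher, 2670 lower and 3068 interaction calls. Quantile normalization gave 3289 higher and 2938 lower, the authors' values 3193 and 3196, and the 6 arrays alone 2296 and 2034. List medians near 0 (jasmonate, salicylic acid, ethylene, clock, glucosinolates, cell division) have no settled direction. Genes near background are limited by signal.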

Other observations

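Gene families were also grouped by symbol, and several had shares near those of all genes. Of 63 NAC genes 24 were lower and 2 higher in gvs1-1 (median -0.32), beside 15.1% lower and 17.9% higher among all genes. NAC084 (-2.42 ± 0.44), NAC041 (-1.7 ± 0.20), NAC080 (-1.48 ± 0.21), NAC046 (-1.46 ± 0.30) and NAC087 (-1.37 ± 0.33) were among the lower members. Of 56 WRKY genes 8 were lower, 14.3%, and 0 higher, with a median of 0.02. WRKY58 (-1.18 ± 0.11) and WRKY25 (-0.76 ± 0.19) were among the 8. Of 74 MYB genes 12 were lower and 11 higher, 16.2% and 14.9%, near the shares of all genes. Of 32 bZIP genes 7 were lower and 2 higher, of 20 bHLH genes 2 and 5, and of 23 ERF genes 1 and 4. Beside the 15.1% lower and 17.9% higher of all genes, the share of higher ERF genes was near the latter. The bHLH shares, 10% lower and 25% higher, were only a few genes away from those of all genes. The bHLH median of 0.16 became -0.27 with normexp correction. It was also negative without Col replicate 1, Col replicate 2 or gvs1-1 replicate 2. Of 18 heat shock factors 2 were lower and 2 higher, 11.1% each, below the shares of all genes. Slide as a block left 6 NAC genes lower and 0 higher, and 3 WRKY genes lower.

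Enzymes that conjugate small molecules were more often lower than higher. Of 57 UDP-glycosyltransferases 19 were lower and 4 higher (median -0.46), among them UGT74F2 (-1.16 ± 0.19), which glucosylates salicylic acid, UGT75B1 (-1.71 ± 0.35) and UGT73B3 (-1.21 ± 0.20), while UGT85A4 was higher by 1.2 ± 0.19. Of 36 glutathione transferases 10 were lower and 2 higher (median -0.51), with GSTU3 at -2.55 ± 0.48, GSTU19 at -0.62 ± 0.13 and GSTU18, a higher gene, at 0.95 ± 0.18. Cytochromes P450 were split, 27 lower and 24 higher of 146, 18.5% and 16.4%, beside 15.1% and 17.9% of all genes. Receptor-like kinases had 3 lower and 4 higher of 34, 8.82% and 11.8%. Of cell wall families, 2 of 17 expansins were higher, 11.8%, and 0 lower, with EXPA9 at 1.37 ± 0.30. Of 24 XTH genes 3 were higher and 3 lower, 12.5% each. These shares all lie below the 15.1% lower and 17.9% higher of all genes. Without Col replicate 3, 10 expansins were higher, and with normexp correction the expansin median of 0.86 became -0.34 with 0 higher. With slide as a block 4 glycosyltransferases and 2 glutathione transferases were lower. With 1 array left out 12 to 18 glycosyltransferases and 4 to 8 glutathione transferases were lower, fewest without gvs1-1 replicate 3 for the latter, and 5 to 9 MYB and 2 to 8 ERF genes were higher. Genes named here outside the lists were chosen after their values were seen.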
